A study of Mus musculus with 8 samples.

Results

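*Asah1*, *Ppt2* and *Hyal2* are genes for lysosomal hydrolases, and PRDM10 binding near them was described with all peaks listed within the gene body, 5 kb upstream or 1 kb downstream of it. The 3 genes were chosen by measured values of these data, because each had a PRDM10 peak, so their having a peak, its signal value, its rank and its distance from the transcriptional start site (TSS) are given as a description with no test. They held 3 of the 528 peaks of mouse embryonic stem cells (mESCs) given ethanol (EtOH), 1 per gene, and 1 of the 176 peaks of mESCs given 4-hydroxytamoxifen (4-OHT), at *Asah1*. PRDM10, a zinc finger transcription factor, was immunoprecipitated and the bound DNA sequenced (ChIP-seq) in 8 samples. In the EtOH group the genotype was Prdm10F/F; Rosa26-CreERT2, with intact floxed alleles. In the 4-OHT group, Prdm10del/del; Rosa26-CreERT2, 50 nM 4-OHT for 24 h activated the Cre recombinase that both groups carry from the *Rosa26* locus. Per the study's methods, the cells were washed after the exposure and harvested for ChIP-seq later, not at its end. Each group had 3 ChIP samples, made with different polyclonal antibodies, and 1 input sample without antibody. Each group was deposited as 1 peak list pooled over its antibodies, so no value below has a replicate error or a test, the lists give no read depth behind a peak, and the loss of PRDM10 and the stem cell identity could not be checked in these files. All 3 EtOH peaks lay at annotated promoters, with summits 29 to 104 bp from a TSS.

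Lysosomal hydrolases are made in the secretory pathway and break down lipids, proteins and sugars in the acidic lumen of the lysosome. *Asah1* encodes acid ceramidase, which splits ceramide into sphingosine and a fatty acid, and whose inherited loss causes Farber disease. *Ppt2* encodes palmitoyl-protein thioesterase 2, which cleaves thioester-linked fatty acyl groups and whose loss in mice gives a lysosomal storage disorder of the nervous system. *Hyal2* encodes a hyaluronidase that cuts long hyaluronan chains and is found on the cell surface as well as in lysosomes.

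The sequences under the *Ppt2* and *Hyal2* peaks show where each peak has, or lacks, the PRDM10 motif. They are the stretches of the 2 EtOH peaks outside annotated 5′UTRs, from the RefSeq genome of build GRCm38.p6 (mm10), each 5′ to 3′ in the direction of its gene. The *Ppt2* stretch is chr17:34627526-34627816 on the minus strand and includes the summit. The *Hyal2* stretch is chr9:107568842-107568982 on the plus strand and ends before the summit. Capitals mark, in *Ppt2*, a site of the form TGGANNNNTCCA, and, in *Hyal2*, a site of that form near the 5′ end and, further along, a match to the motif's core, TGGTNNNNNCC, which lies on the opposite strand.
Ppt2: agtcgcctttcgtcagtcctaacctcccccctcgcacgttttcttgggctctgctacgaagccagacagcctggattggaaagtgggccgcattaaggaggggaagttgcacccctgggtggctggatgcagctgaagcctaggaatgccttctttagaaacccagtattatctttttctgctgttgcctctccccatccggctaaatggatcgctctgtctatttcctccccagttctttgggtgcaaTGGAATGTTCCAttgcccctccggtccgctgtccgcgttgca
Hyal2: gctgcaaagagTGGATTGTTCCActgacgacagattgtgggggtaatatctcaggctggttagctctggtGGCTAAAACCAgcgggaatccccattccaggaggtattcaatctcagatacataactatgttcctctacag

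The capitalised sites of *Hyal2* and *Ppt2* are shown again with 4 bases on each side, beside the wild-type oligonucleotide that the study designed for gel shift assays of PRDM10, in which capitals mark the core. For *Hyal2* the strand that carries the core is printed. The sites of the other form differ from the motif by T6A, where numbering begins with 1 at the 5′ end of a 14-base reading of the motif's logo.
Gel shift probe: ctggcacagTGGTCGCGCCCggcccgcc
Hyal2 core site: ccgcTGGTTTTAGCCacca
Ppt2 T6A site: gcaaTGGAATGTTCCAttgc
Hyal2 T6A site: agagTGGATTGTTCCActga

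*Asah1* (ENSMUSG00000031591, chromosome 8, 41340197 to 41374773, minus strand) had the strongest of the 3 EtOH peaks. The peak spanned 41374545 to 41374930, 386 bp, with a signal value of 684, a score on the peak caller's own scale for the pooled ChIP samples. It ranked 13 of 528 by signal value, and 97.5% of the EtOH list lay below it. The summit, at 41374744, was 29 bp downstream of the TSS shared by the principal transcript Asah1-201 and Asah1-205, in the 5′UTR part of exon 1. The peak covered the starts of 3 of the 5 annotated transcripts and the start codon of Asah1-201. No other gene had the peak in its window, and the nearest other gene start, that of *Frg1*, was 42330 bp from the summit.

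*Hyal2* (ENSMUSG00000010047, chromosome 9, 107567945 to 107572779, plus strand) came next among the 3. Its EtOH peak spanned 107568842 to 107569185, 344 bp, with a signal value of 391, and ranked 113 of 528. The summit, at 107569013, was 104 bp upstream of the start of the principal transcript Hyal2-201. A further principal transcript, Hyal2-207, starts 1068 bp upstream of the summit, so the same summit is in the 5′UTR part of its exon 2. The peak held the starts of 2 of the 7 transcripts of *Hyal2*. It was also a promoter peak of the antisense gene *Gm9917*, whose start was 598 bp from the summit on the opposite strand, and the peak list cannot assign it to one of these genes. *Hyal1*, which encodes a related hyaluronidase, starts 7914 bp from the summit, and its window did not hold the peak.

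*Ppt2* (ENSMUSG00000015474, chromosome 17, 34616662 to 34628510, minus strand) had the weakest of the 3 EtOH peaks, near the middle of the list. It spanned 34627387 to 34627816, 430 bp, with a signal value of 116, and ranked 278 of 528, with 47.3% of the list below it. The summit, at 34627602, was 77 bp upstream of the start of Ppt2-205. *Ppt2* has 10 annotated transcripts, each with its own start, and 4 of the starts lay inside the peak. Of the 6 principal transcripts, Ppt2-210 has the start farthest from the summit, 454 bp away, and the start of Ppt2-202 lies 437 bp on the upstream side, so the summit was between starts of the same gene. The peak was also in the windows of *Gm20460*, a processed transcript on the same strand that starts 253 bp from the summit, and of *Prrt1*, a gene for a transmembrane protein on the opposite strand that starts 1931 bp away. This peak, too, cannot be assigned to one of the genes, and it counts as a promoter peak of *Gm20460* as well as of *Ppt2*.

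**Figure D1:**
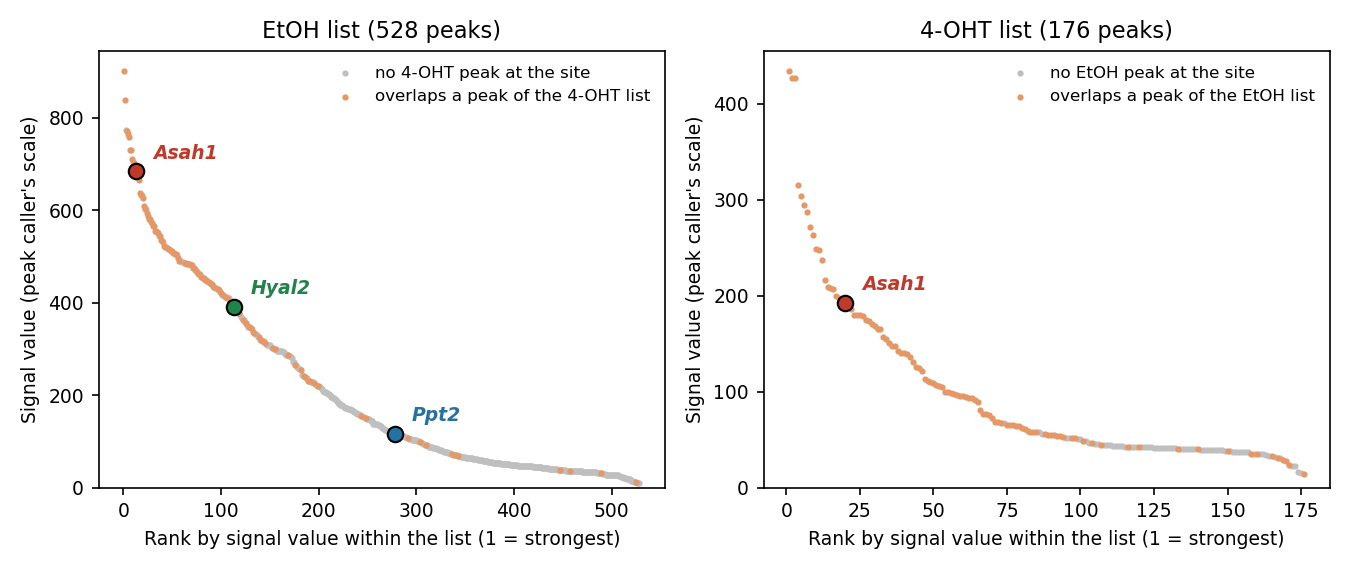
Signal value against rank for the 528 EtOH peaks (left) and the 176 4-OHT peaks (right), 1 point per peak, orange where the other list has an overlapping peak. In the EtOH list *Asah1* is at rank 13, *Hyal2* at 113 and *Ppt2* at 278, and in the 4-OHT list *Asah1*, at rank 20, is the one member shown.

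Signal values ran from 9.78 to 899.8 over the EtOH list, with a median of 131 over all peaks and of 208 over the 376 peaks that overlapped a TSS or the 1 kb upstream of it. *Asah1* and *Hyal2* were above both medians and *Ppt2* was below both. All 3 peaks had the maximum IDR score of 1000, as had 504 of the 528 EtOH peaks (95.5%). The score rises with the agreement between pseudo-replicates, which the authors made by splitting the pooled reads into equal sets. It does not measure agreement among the antibodies. The *Ppt2* peak had the commonest width of the list, 430 bp, shared by 300 peaks, while the *Asah1* and *Hyal2* peaks were narrower. Outside the windows of the genes, the closest further EtOH peak was 456 kb beyond that of *Ppt2*, 1251 kb beyond that of *Hyal2* and 4595 kb beyond that of *Asah1*, so each gene's peak stood alone in its neighbourhood.

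The 4-OHT samples, in which *Prdm10* was deleted, served the study as a check of how specific the antibodies were. The study reported that every peak of the control cells was lost or much weaker after the deletion. A peak at *Asah1* was listed in the 4-OHT samples too, and peaks at *Hyal2* and *Ppt2* were not. Thus 1 of the 3 EtOH peaks shared 1 bp or more with a 4-OHT peak, beside 107 of all 528 (20.3%). The 528 EtOH entries lie in 520 intervals, as some intervals hold more than 1 summit, and every share of 528 counts each entry. The peak caller scaled each list by itself, so a change in binding could not be measured from the signal values. A peak that is not listed is not shown to be unbound, and a listed one is not shown to have kept its strength.

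The 4-OHT peak at *Asah1* spanned 41374483 to 41375018, 536 bp, with a signal value of 193, and ranked 20 of 176. It covered the whole EtOH peak, which took up 72.0% of it, and the summits were at the same base. Among the 107 EtOH peaks with a 4-OHT partner the summits were a median of 22 bp apart, and the only other peak with identical summits was at the shared promoter of *Aagab* and *Iqch*, at EtOH rank 25, which was named after the values were seen. *Asah1* ranked 11 among the 107 shared peaks by EtOH signal value. The only EtOH peaks stronger than that of *Asah1* without a 4-OHT partner were at *Pip5k1c*, with a signal value of 772, and *Flcn*, with 704, both named after the values were seen.

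Presence in the 4-OHT list went with strength in the EtOH list as a whole. At EtOH ranks 1 to 132, which include *Asah1* and *Hyal2*, 59.1% of peaks had a 4-OHT partner, against 4.55% at ranks 265 to 396, which include *Ppt2*. Within 20 ranks of *Asah1*, 27 of 32 other peaks had a partner, within 20 ranks of *Hyal2* 17 of 40, and within 20 ranks of *Ppt2* 1 of 40. Peaks without a partner were therefore the commoner kind around *Ppt2* and formed 23 of the 40 around *Hyal2*. Of the 421 EtOH peaks without a partner, 42 were stronger than that of *Hyal2* and 180 stronger than that of *Ppt2*. Of the 107 shared peaks, 37 were weaker than the *Hyal2* peak, so the *Hyal2* peak was not in the 4-OHT list while weaker EtOH peaks were. Width moved with this too: 7 of the 300 EtOH peaks of 430 bp had a partner, against 100 of the 228 of other widths. What part signal value or width had in the 4-OHT list was not tested.

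The promoter peaks closest in EtOH rank, with the same presence or absence in the 4-OHT list, give the setting of each gene over the 2 treatments. Next to *Asah1* came *Taf15*, an RNA-binding protein gene of the FET family, 1 rank above and at 4-OHT rank 2, and *Eed*, a subunit of Polycomb repressive complex 2, 1 rank below and at 4-OHT rank 78. These 3 peaks, next to each other in the EtOH list, were at 4-OHT ranks 2, 20 and 78. Beside *Hyal2* were *Fbxo33*, an F-box protein gene, 3 ranks above and the shared promoter of *Cby1* and *Fam227a* 3 ranks below. Beside *Ppt2* were *Lars*, the cytosolic leucyl-tRNA synthetase gene, 1 rank above and the shared promoter of *Gpatch2* and *Spata17* 2 ranks below.

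**Figure D2:**
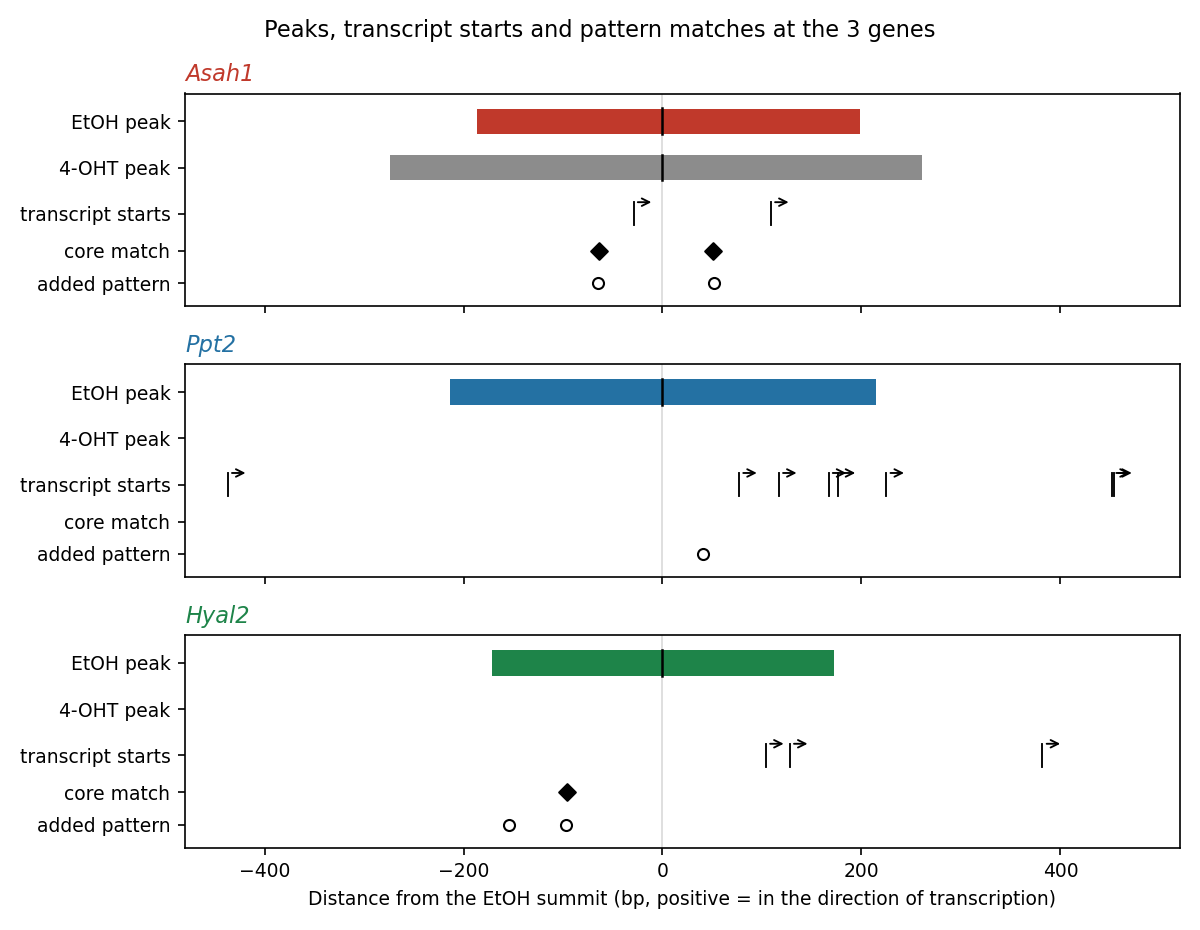
Map of each gene's peaks on a scale of bp from the EtOH summit, positive in the direction of transcription. Bars are peaks with the summit as a black line, arrows are transcript starts within 520 bp, diamonds are matches to TGGTNNNNNCC and circles matches to TGGNNNNNNCCA. *Asah1* has diamonds on both sides of its summit, *Hyal2* has 1 upstream of it and *Ppt2* has none.

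The core of the PRDM10 motif, TGGTNNNNNCC, was searched on both strands of each peak. It was found in the *Asah1* and *Hyal2* peaks and not in the *Ppt2* peak, 2 of 3, beside 339 of all 528 EtOH peaks (64.2%). In windows of 300 bases it was in 59.7% of EtOH peaks centred on the summit and in 13.9% of the 21938 protein-coding promoters, taken from 250 bases before to 50 after the start. A match describes the letters and is not evidence of bound protein.

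*Asah1* had 2 core matches, 1 on each strand, centred 64 bp upstream and 51 bp downstream of the summit in the direction of the gene. Peaks with 2 or more matches made up 22.9% of the EtOH list. Both matches at *Asah1* also fitted, with no difference, the longer 14-base reading of the motif logo, which 175 of 528 EtOH peaks held (33.1%) and which the *Hyal2* and *Ppt2* peaks did not. The full matches were 114 bp apart with the summit between them. There were 28 EtOH peaks with 2 or more full matches, and in 19 of them the summit lay between full matches. The upstream match is outside the GENCODE transcripts of the gene. The downstream one is in the 5′UTR of Asah1-201 and in the coding sequence of Asah1-205, where it overlaps the start codon.

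The *Hyal2* peak had 1 core match, on the minus strand at 107568912 to 107568922, centred 96 bp upstream of the summit. Over the 339 EtOH peaks with a match, the nearest one was a median of 57 bp from the summit, with an interquartile range of 28 to 99 bp, so that of *Hyal2* was near the outer end of that range and the nearer match at *Asah1*, at 51 bp, near the median. The *Hyal2* match lies in the intron between exons 1 and 2 of Hyal2-207 and upstream of Hyal2-201.

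In the *Ppt2* peak the windows closest to the motif differed from the 14-base reading at 1 position, T6A, which is in the core. They were overlapping windows on the 2 strands, 34627554 to 34627567 on the plus strand and 34627556 to 34627569 on the minus strand, since the 12 bases printed above in capitals have the form TGGANNNNTCCA, which reads the same on both strands. The site was centred 40.5 bp from the summit, towards the TSS. *Hyal2* had a site of the same form, centred 154.5 bp upstream of its summit. This form was noticed after the sequences were seen. Over whole peaks it occurred in 2 of the 3, beside 20 of all 528 EtOH peaks (3.79%), and *Ppt2* was 1 of 9 EtOH peaks that held it without a core match. In windows of 300 bases it was in 17 of 528 EtOH peaks centred on the summit (3.22%) and in 0.634% of protein-coding promoters, and of the 3 genes *Ppt2* alone had it there, since the *Hyal2* site is too far from its summit.

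A looser form that covers the core matches and the T6A sites of the 3 genes, TGGNNNNNNCCA, was chosen after the values were seen. It was in all 3 peaks, at 2 sites in *Asah1*, 2 in *Hyal2* and 1 in *Ppt2*, because it was built from them. Over whole peaks it was in 217 of all 528 in the EtOH list (41.1%) and in 46 of the 189 without a core match (24.3%). In windows of 300 bases it was in 196 of 528 EtOH peaks centred on the summit (37.1%), the 3 genes included, and in 10.9% of protein-coding promoters.

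**Figure D3:**
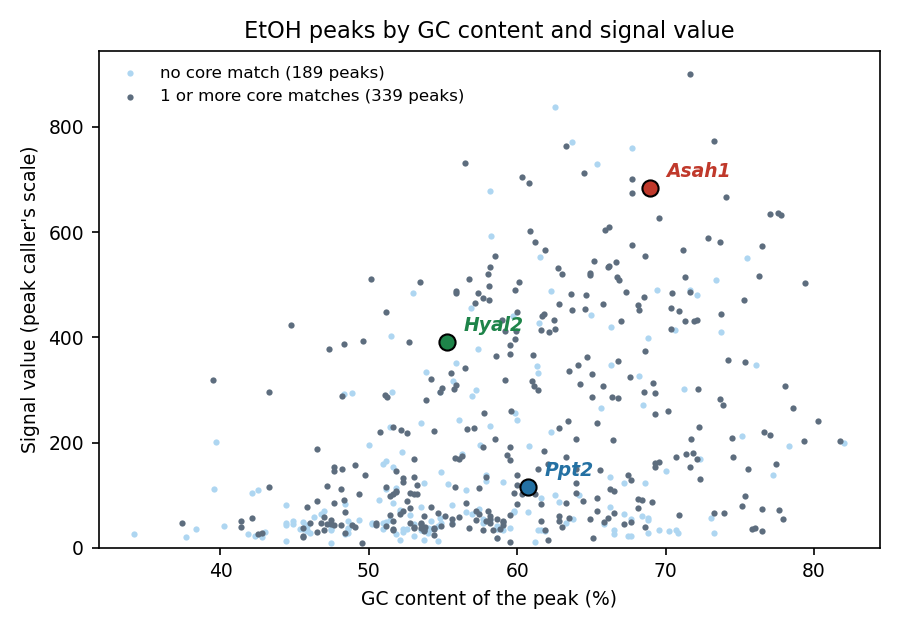
Signal value against GC content for the 528 EtOH peaks, 1 point per peak, dark where the peak has a core match. *Asah1* is at 68.9% GC, *Ppt2* at 60.7% and *Hyal2* at 55.2%.

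Base composition differed among the 3 promoters. GC content was 68.9% in the *Asah1* peak, 60.7% in *Ppt2* and 55.2% in *Hyal2*, against a median of 62.1% over the 376 promoter peaks of the EtOH list, of which 290 had a lower GC content than *Asah1*, 158 than *Ppt2* and 79 than *Hyal2*. The CpG dinucleotide, frequent in CpG island promoters, occurred 8.81 times per 100 bp in the *Asah1* peak, 6.51 times in *Ppt2* and 4.65 times in *Hyal2*, with a median of 7.22 over the promoter peaks. The order by composition was not that by signal value, since *Hyal2* was above *Ppt2* in signal value and below it in GC content. Repeats masked in the genome took up 5.70% of the *Asah1* peak, 7.91% of *Ppt2* and 6.10% of *Hyal2*, and no match named here overlapped one.

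The other genes of the pathways were taken from 5 lists compiled with earlier results of these data known. Of 54 genes for luminal lysosomal hydrolases, *Asah1*, *Ppt2* and *Hyal2* were the 3 with an EtOH peak (5.56%), beside 543 of 21924 protein-coding genes (2.48%). As they were chosen for their peaks, this count says nothing beyond the choice, and of the other 51 hydrolase genes none had a listed peak. With a 4-OHT peak there was 1 hydrolase gene, *Asah1*, beside 161 of 21924 protein-coding genes (0.734%).

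Among the other 40 genes of ceramide and sphingolipid metabolism and the other 21 of hyaluronan metabolism and binding that were annotated, none had an EtOH peak. *Hmmr*, which encodes a hyaluronan receptor, had 2 4-OHT peaks without an EtOH partner, at 4-OHT ranks 105 and 152. Their signal values were 46.1 and 37.6, and their summits were 17763 and 18244 bp from its nearest TSS. Their IDR scores were 735 and 935, where a score of 830 stands for an IDR of 0.01. The study itself reported no peaks that were found only in PRDM10-deficient cells. Of the other 35 genes of protein palmitoylation and depalmitoylation, *Zdhhc5*, a palmitoyltransferase gene, had overlapping EtOH peaks at ranks 356 and 510, with signal values of 63.5 and 22.4 and no 4-OHT partner. Apart from *Zdhhc5*, no further gene of these enzyme lists had a listed EtOH peak.

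In the list for the lysosomal membrane, acidification, trafficking and regulation, 3 of 53 genes had an EtOH peak (5.66%). *Atp6v0c*, a proteolipid subunit of the proton pump that acidifies lysosomes, had a peak 85 bp from its TSS at rank 139, with a signal value of 325 and a 4-OHT partner at rank 93. *Flcn*, which encodes folliculin, a regulator of mTORC1 signalling at the lysosome, had 2 summits in 1 interval at ranks 10 and 299, without a 4-OHT partner. The peak in the window of *Mcoln1*, a lysosomal cation channel gene, was 2504 bp from its TSS, at the promoter of *Pnpla6*, at rank 393 with a signal value of 50.9 and no 4-OHT partner. With *Asah1*, *Ppt2* and *Hyal2* left out, 4 of the 195 annotated genes of the 5 lists had an EtOH peak (2.05%), a share near that of all protein-coding genes (2.48%).

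**Figure D4:**
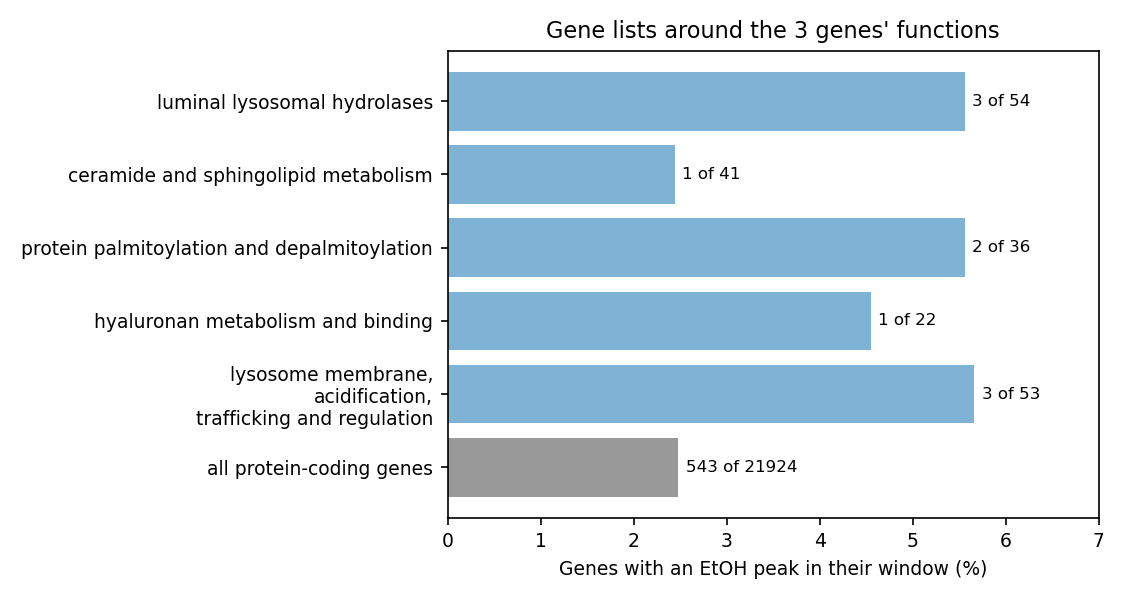
Percentage of annotated genes with an EtOH peak in their window, for 5 lists around the functions of the 3 genes and for all protein-coding genes (grey), with counts beside the bars. The bars run from 2.44% to 5.66%, against 2.48% for all protein-coding genes, and each list holds at most 3 genes with a peak. The bars count the 3 genes chosen for their peaks, without which the shares of the first 4 lists are 0%, 0%, 2.86% and 0%.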

How the data were processed

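PRDM10 ChIP-seq was analysed from 2 deposited peak lists, 1 per treatment. Per the labels and the study's methods, the authors aligned reads to mm10 with BWA 0.7.13 and processed them with Picard 2.10.6 and SAMtools 1.2. They called peaks with SPP on pooled samples and kept those with an IDR of at most 0.05. The IDR compared pseudo-replicates split from the pooled reads, not the antibodies. The deposited signal value is on the peak caller's own scale. The deposited IDR score is capped at 1000, and the deposited FDR score was not used. The lists hold no read counts.

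Computed here, with Python 3.11.15, pandas 2.3.3, pysam 0.24.0, matplotlib 3.10.9 and samtools 1.23.1, were ranks within a list, overlaps, distances to GENCODE vM21 transcript starts, and pattern matches and base composition in GRCm38.p6, the same build. The 14-base motif was read by eye from the study's logo. The matching and overlap steps were checked on simulated sequences and intervals. Of the 3 genes, 2 (*Ppt2* and *Hyal2*) matched the RefSeq promoter table. Named genes are the 3, genes whose windows share their peaks, genes of the 5 lists with a peak, and the nearest promoter peaks by rank. Outside this rule, chosen after their values were seen, are *Frg1*, *Hyal1*, *Aagab*, *Iqch*, *Pip5k1c*, *Pnpla6* and the 4-OHT peaks of *Hmmr*. The members, lists and patterns were chosen with earlier results of these data known. No statistical test of the data was made.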

Additional observations from a re-analysis of the deposited data

How the results depend on the processing

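Most of the values kept their size under the alternatives. Keeping only peaks with an IDR of at most 0.01, or requiring a peak to overlap a TSS or the 1 kb upstream of it, gave the same counts of 3 EtOH peaks, 1 4-OHT peak and 3 hydrolase genes with an EtOH peak. The count of 1 shared peak was the same with an IDR of at most 0.01 in both lists, with an overlap of 50% of both peaks and with the EtOH summit inside the 4-OHT peak. The number of peaks with a core match, 2, was the same in repeat-masked sequence. It was 1 with the 14-base reading, without a mismatch and with at most 1 outside the core, and 0 within 50 bases on each side of the summit, where 26.1% of all EtOH peaks had a match. With TGGNNNNNNCCA, chosen after seeing the data, it was 3. The nearest start of a principal transcript gave the same distances to the TSS, and the farthest, also chosen after seeing the data, gave 29 bp for *Asah1*, 454 bp for *Ppt2* and 1068 bp for *Hyal2*. Replicates could not be left out in turn, since the lists are pooled over antibodies and the depth behind each peak is not recorded. No paired analysis was possible because each treatment has a single pooled list and no test was made.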
